A study of Homo sapiens with 6 samples.

Results

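The 9 enzymes described here carry acetyl-CoA-derived carbon through the mevalonate pathway to cholesterol, and were taken by gene name, in pathway order, from deposited lists of N6-methyladenosine (m6A) peaks. They are HMGCS1, MVK, MVD, FDPS, FDFT1, SQLE, LSS, CYP51A1 and DHCR7. They are 9 of the 16269 gene names in the lists, and all 9 had peaks under both treatments, with 23 of the 41838 peaks of the FB23-2 list and 24 of the 42813 peaks of the DMSO list. The lists come from MHCC97H cells, a human hepatocellular carcinoma line, given 2 µM of FB23-2 for 48 h (3 samples) or the vehicle DMSO for 48 h (3 samples). FB23-2 inhibits FTO, an enzyme that removes m6A from RNA, and the study looked for transcripts that FB23-2 acts on through FTO. Fragmented poly(A) RNA was enriched with an antibody against m6A and sequenced beside its input (MeRIP-seq). Each treatment has 1 pooled list with no value per sample, so no peak has a replicate check, read depth is unknown, and the lists could not be compared by a test.

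The peak lists hold no expression levels. Of the hepatocyte and liver cancer markers looked for, KRT8, KRT18 and HNF4A had peaks in both lists, and AFP, ALB and GPC3 had none in either. Of 6 markers of leukocytes, endothelial cells and fibroblasts, CD68, CDH5, COL1A1 and PDGFRB had peaks in both lists, and PTPRC and PECAM1 had none in either. A transcript without a peak may still be expressed, and no peak identifies a cell type.

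In the mevalonate pathway, acetyl-CoA units are joined and reduced to mevalonate, which is phosphorylated and decarboxylated to isoprenoid units. These units build farnesyl diphosphate, a branch point that also feeds protein prenylation, and pairs of farnesyl diphosphate are joined into squalene, the first step given over to sterols. Squalene is oxidised, closed into the sterol rings of lanosterol and trimmed to cholesterol, and in liver cells the SREBP transcription factors switch most of these genes on when sterols run low. m6A is laid down on messenger RNA mostly around stop codons and in 3' UTRs, where reader proteins bind it and can alter splicing, translation and decay. The deposited pathway annotation put HMGCS1, MVK, MVD and FDPS under terpenoid backbone biosynthesis and the other 5 enzymes under steroid biosynthesis, with 0 in both.

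A stretch of the first 50 transcript bases is shown for FDPS and CYP51A1, which had list-only peaks near the transcript start. MVD is shown too, since its DMSO peak began closer to that start than the FB23-2 peak did. The sequences are RefSeq bases of GRCh38.p14, 30 from each transcript, written 5' to 3' on the coding strand. Capitals mark GGAC, a common core of the m6A consensus, searched on the transcribed strand only.
FDPS, chr1:155308866-155308895, plus strand, transcript bases 1 to 30: gggaactactcgacccacagagccgatcgc
CYP51A1, chr7:92134428-92134457, minus strand, transcript bases 21 to 50: gccccctgtGGACgaccatctgccagcttc
MVD, chr16:88663062-88663091, minus strand, transcript bases 1 to 30: gcggtgGGACcatggcctcggagaagccgc

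The first DMSO peak of FDPS began at base 8 of this RefSeq transcript, that of MVD at base 48, and the first FB23-2 peak of CYP51A1 at base 56, just beyond the printed stretch. Within the first 50 transcribed bases GGAC stood at base 30 in CYP51A1 and base 7 in MVD, and was not found in FDPS. Neither match lay within a peak of its enzyme. GGAC was present in 18.9% of the first 50 bases at 35116 RefSeq starts. These matches describe letters in a window and are not mapped m6A sites.

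Peaks of the lists were paired as shared where they lay on one strand and the overlap covered 50% or more of whichever peak was shorter. All others are called list-only. The rule counts genomic bases, introns included. By this rule 2 of the 23 FB23-2 peaks of the 9 enzymes were found in the FB23-2 list only (8.70%, exact 95% interval 1.07 to 28.0), against 17.3% of all FB23-2 peaks. Likewise 3 of the 24 DMSO peaks were DMSO-only (12.5%, 2.66 to 32.4), against 20.1% of all DMSO peaks. Both intervals, which cover counting error only, include the share over all peaks. The 5 list-only peaks lay in FDPS (1 in each list), CYP51A1 (1 FB23-2-only) and MVK (2 DMSO-only). All 5 fell outside the 3' UTR class, with 0 list-only peaks among 15 FB23-2 and 14 DMSO peaks in 3' UTRs, where 12.8% and 15.6% of all peaks of that class were list-only. In the other classes 2 of 8 FB23-2 and 3 of 10 DMSO peaks were list-only, against 23.3% and 26.1% over all genes. HMGCS1, MVD, FDFT1, SQLE, LSS and DHCR7 had every peak shared, 6 of 9 enzymes, where 52.2% of the 15351 genes with peaks in both lists did. Where the overlap had to cover 50% of both peaks, HMGCS1 and SQLE no longer did, and 4 of 9 were left. That stricter rule also left fewer peaks shared over all genes, 65.9% of FB23-2 and 64.4% of DMSO peaks. The 52.2% of genes was not recounted under it. Over all genes, 91.3% of 16810 had a peak in both lists.

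**Figure D1:**
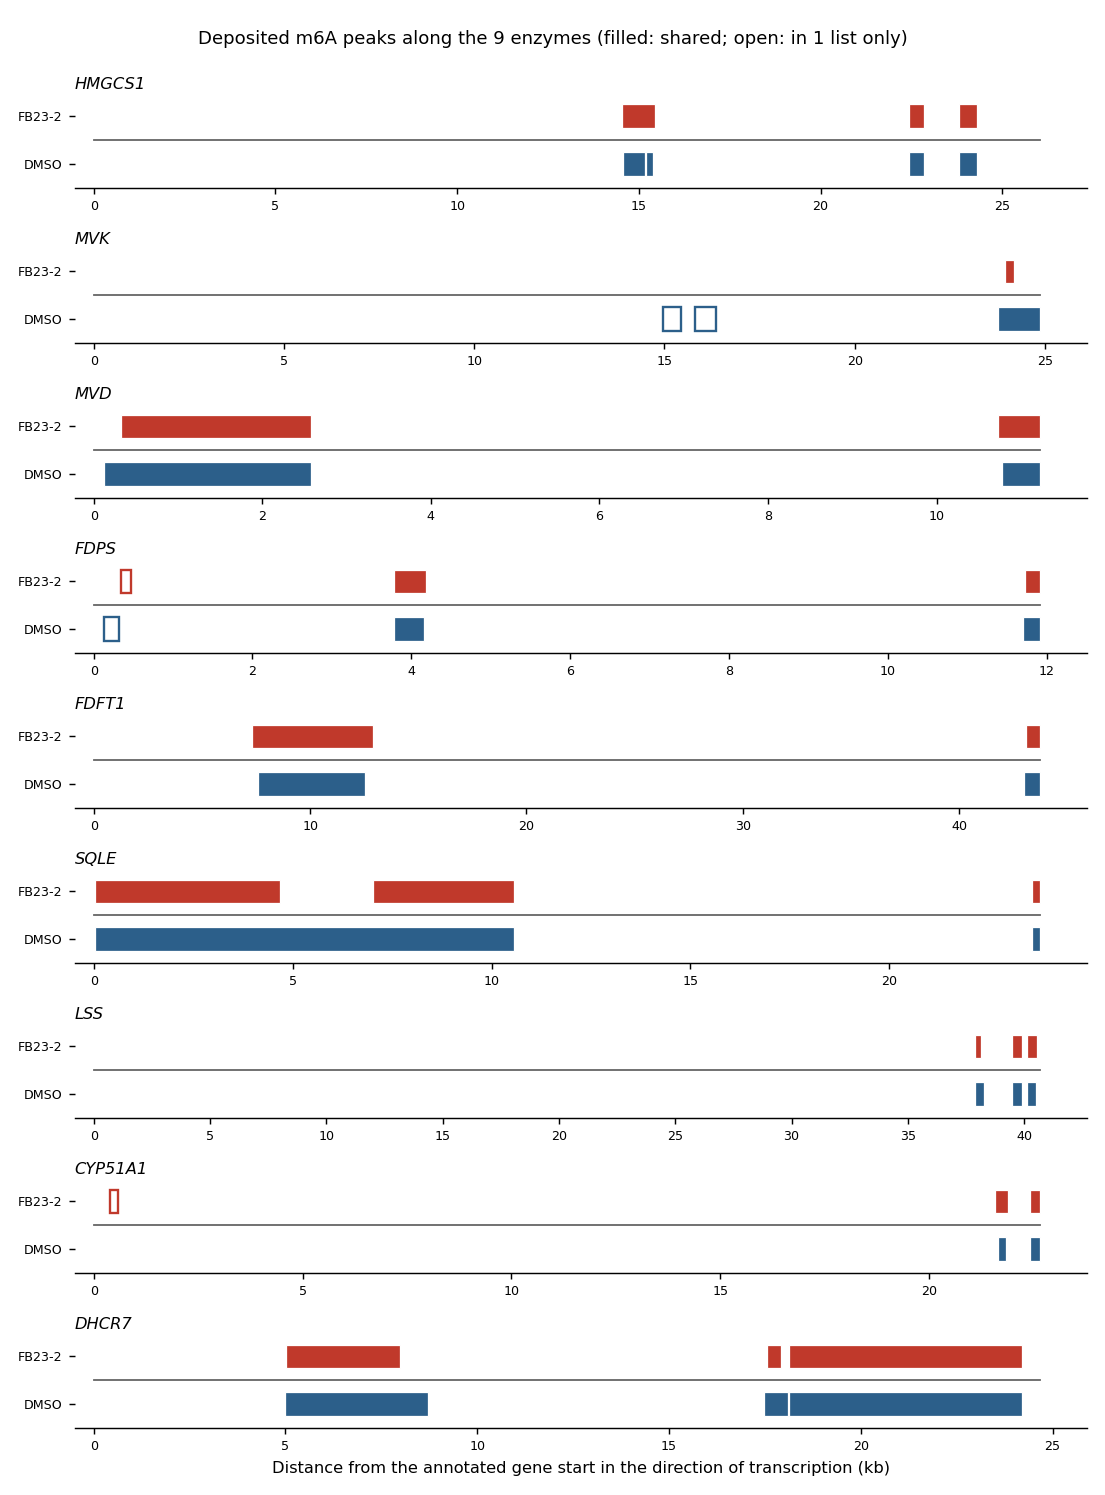
Peaks of the 9 enzymes in pathway order, drawn to scale by distance from the annotated gene start in kb along the direction of transcription, with the FB23-2 list above the gene line and the DMSO list below it. Filled boxes are shared peaks and open boxes peaks of 1 list only, and spans include introns. All 9 enzymes have shared boxes toward the 3' end, and the 5 open boxes lie in MVK, FDPS and CYP51A1.

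**Figure D2:**
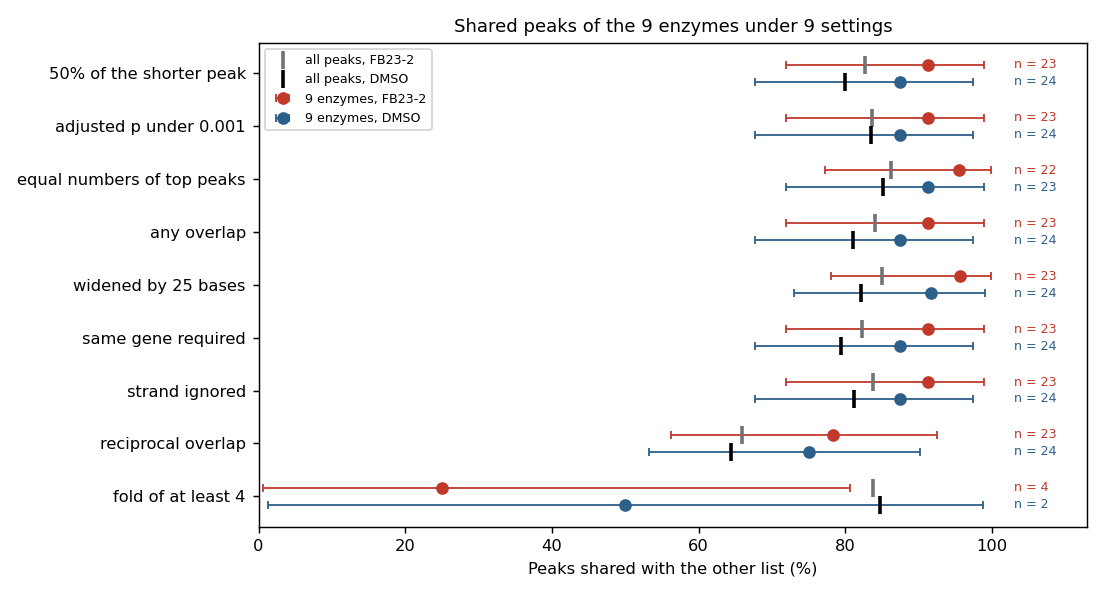
Share of peaks shared with the other list in percent (points, exact 95% intervals) for the 9 enzymes under 9 settings, with the share over all peaks as ticks and the number of peaks left at the right, FB23-2 above DMSO in each row. Points of the enzymes lie above the ticks in each setting except a fold of at least 4, where 4 and 2 peaks were left. Where points lie above, the interval includes the tick, and the settings reuse the same peaks. At a fold of at least 4 the FB23-2 interval ends at 80.6%, below its tick at 83.7%, and the DMSO interval includes its tick.

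The first enzymes build the isoprenoid unit. Positions are on GRCh38, with gene identifiers and bounds as the tables give them. Spans of peaks are genomic and can include introns, so they are not lengths of RNA. HMGCS1 (ENSG00000112972, minus strand of chromosome 5, 43287470 to 43313512), the cytosolic HMG-CoA synthase, had 3 FB23-2 and 4 DMSO peaks. Around the middle of the gene lay a single FB23-2 peak at 43298059 to 43298967 with a deposited log2 fold of 1.73, which is read here as immunoprecipitate over input. The DMSO list had this stretch as a pair of peaks, at 43298343 to 43298942 (1.67) and 43298109 to 43298317 (0.82), separated by 25 bases. The FB23-2 peak was annotated to the 5' UTR and both DMSO peaks to coding exons, so the same stretch has different classes in the lists. The HMGCS1 3' UTR held a peak at 43290670 to 43291069 in both lists, and its log2 fold was 0.91 under FB23-2 and 1.0 under DMSO. The 3' UTR peak nearer the gene's end had its upper border at 43289694 in both, with 1.39 under FB23-2 and 1.38 under DMSO. A noncoding gene of the opposite strand, AC114947, had a peak on the other strand that overlapped 72.4% of this last FB23-2 peak and 100% of the DMSO one. Whether the libraries kept strand is not given in the sources used here, so reads of HMGCS1 and AC114947 there cannot be told apart, and the same holds for the other opposite-strand overlaps, in FDPS and LSS.

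MVK (ENSG00000110921, plus strand of chromosome 12, 109573255 to 109598125), mevalonate kinase, was the enzyme whose lists differed most in number, with 1 FB23-2 and 3 DMSO peaks. Both DMSO-only peaks were annotated to introns, at 109588220 to 109588694 (log2 fold 1.85) and 109589045 to 109589619 (1.21). The nearest FB23-2 peak of MVK lay 8518 and 7593 bases from them. In the MVK 3' UTR the FB23-2 peak spanned 225 bases, 109597213 to 109597437, with a log2 fold of 1.17. It lay wholly within a DMSO peak of 1113 bases, 109597013 to 109598125, with 1.77, which reached the end of the gene.

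MVD (ENSG00000167508, minus strand of chromosome 16, 88651935 to 88663161), the decarboxylase that releases isopentenyl diphosphate, had 2 peaks in each list, all shared. Its last 3' UTR peak had its lower border at 88651935, the end of the gene on the minus strand, in both lists, and its log2 fold was 2.01 under FB23-2 and 1.71 under DMSO. The other peak covered 88660584 to 88662841 under FB23-2 (1.94) and 88660584 to 88663044 under DMSO (1.77). It was annotated to a 3' UTR under FB23-2 and to a coding exon under DMSO, although it lies at the 5' side of the gene, and the lists named different transcripts for it.

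FDPS (ENSG00000160752, plus strand of chromosome 1, 155308748 to 155320666), farnesyl diphosphate synthase, had 3 peaks in each list. Near the gene's start the FB23-2 list had a peak at 155309098 to 155309222 (log2 fold 1.68, intron class) and the DMSO list one at 155308873 to 155309072 (1.07, 5' UTR class). These 2 peaks are the list-only peaks of FDPS, and a gap of 25 bases separates them, so they are neighbours and not distant sites. They were also the weakest of the gene by the adjusted p of the authors' deposited table, 0.000126 under FB23-2 and 0.00073 under DMSO. The intronic peak from 155312529 had a log2 fold of 1.35 under FB23-2 and 1.39 under DMSO. The 3' UTR peak, which ended with the gene at 155320666, had 1.58 under FB23-2 and 1.57 under DMSO, and a p of 0 in both of the authors' deposited tables. A peak of the antisense transcript RUSC1-AS1 covered 100% of this FDPS peak in both lists, and its own log2 fold was 2.09 under FB23-2 and 2.13 under DMSO. The table of gene names holds 10 named FDPS pseudogenes, with which FDPS reads may be shared, and none of them had a peak in either list.

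FDFT1 (ENSG00000079459, plus strand of chromosome 8, 11795573 to 11839304), squalene synthase, had 2 peaks in each list, all shared. Its 5' UTR peak spanned 5614 bases under FB23-2, 11802880 to 11808493, with a log2 fold of 2.52. The DMSO peak there spanned 4935 bases, 11803185 to 11808119, with 1.96, and lay wholly within the FB23-2 peak. In the 3' UTR the FB23-2 peak spanned 672 bases (1.35) and the DMSO peak 747 (1.27). Both 3' UTR peaks ended with the gene at 11839304.

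SQLE (ENSG00000104549, plus strand of chromosome 8, 124998497 to 125022283), squalene epoxidase, a rate-limiting step of the sterol branch, had the highest fold of the 9 enzymes in each list. At its 5' end the FB23-2 list had a peak at 124998522 to 125003180, with a log2 fold of 2.97, at percentile 85.3 of the folds of its own list. The DMSO peak began at the same base and ran to 125009067, with 2.53 at percentile 80.1 of its list. The far part of that DMSO peak was a separate FB23-2 peak, 125005527 to 125009067, annotated to a coding exon with a log2 fold of 0.91. A DMSO peak that spans both FB23-2 peaks gives 1 fold for the whole, so 2.97 and 2.53 cover different stretches of RNA. The 3' UTR peak of SQLE, 125022079 to 125022278, was identical in position, with 1.03 under FB23-2 and 1.13 under DMSO.

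LSS (ENSG00000160285, minus strand of chromosome 21, 46188141 to 46228824), lanosterol synthase, which closes the sterol rings, had 3 peaks in each list, all in 3' UTRs and all shared. The peak nearest the gene's end, with its upper border at 46188690 in both lists, had a log2 fold of 2.57 under FB23-2 and 1.84 under DMSO. The middle peak, 46188941 to 46189365 in both lists, had 1.81 under FB23-2 and 2.04 under DMSO. The most upstream peak, with its upper border at 46190940, had 0.77 under FB23-2 and 0.99 under DMSO. The highest fold of LSS thus stood at different peaks in the lists. AP001468, a gene of the opposite strand, had a peak across 36.7% of the FB23-2 and 41.6% of the DMSO peak nearest the end, with a log2 fold of 2.37 under FB23-2 and 2.05 under DMSO.

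CYP51A1 (ENSG00000001630, minus strand of chromosome 7, 92112153 to 92134803), a cytochrome P450 that demethylates lanosterol, had 3 FB23-2 and 2 DMSO peaks. Its FB23-2-only peak was in the 5' UTR class at 92134223 to 92134422, 381 bases after the annotated gene start, with a log2 fold of 1.29 and an adjusted p of 2.49e-14 in the authors' deposited table. The nearest DMSO peak of CYP51A1 lay 21070 bases away, so no DMSO peak of CYP51A1 lay at its 5' side. At the gene's 3' end both lists had a peak at 92112153 to 92112402, whose log2 fold was 1.24 under FB23-2 and 1.24 under DMSO. The second 3' UTR peak had 0.74 under FB23-2 and 0.63 under DMSO, the lowest folds of the 9 enzymes in each list. Of 3 named CYP51A1 pseudogenes, 1 had a peak of its own in each list, whose log2 fold was 2.18 under FB23-2 and 2.20 under DMSO, so reads of CYP51A1 may be split between them.

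DHCR7 (ENSG00000172893, minus strand of chromosome 11, 71428193 to 71452868), the reductase that makes cholesterol from its last precursor in one branch of the pathway, had 3 peaks in each list, all shared. The widest, 71428668 to 71434750 in both lists, was annotated to the 3' UTR and had a log2 fold of 1.87 under FB23-2 and 1.82 under DMSO. A neighbouring 3' UTR peak spanned 375 bases under FB23-2 (1.06) and 625 bases under DMSO (1.31). It lay 200 bases from the widest peak under FB23-2 and 25 bases from it under DMSO. The 5' UTR peak of DHCR7 spanned 2976 bases under FB23-2 (1.02) and 3727 bases under DMSO (1.27).

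**Figure D3:**
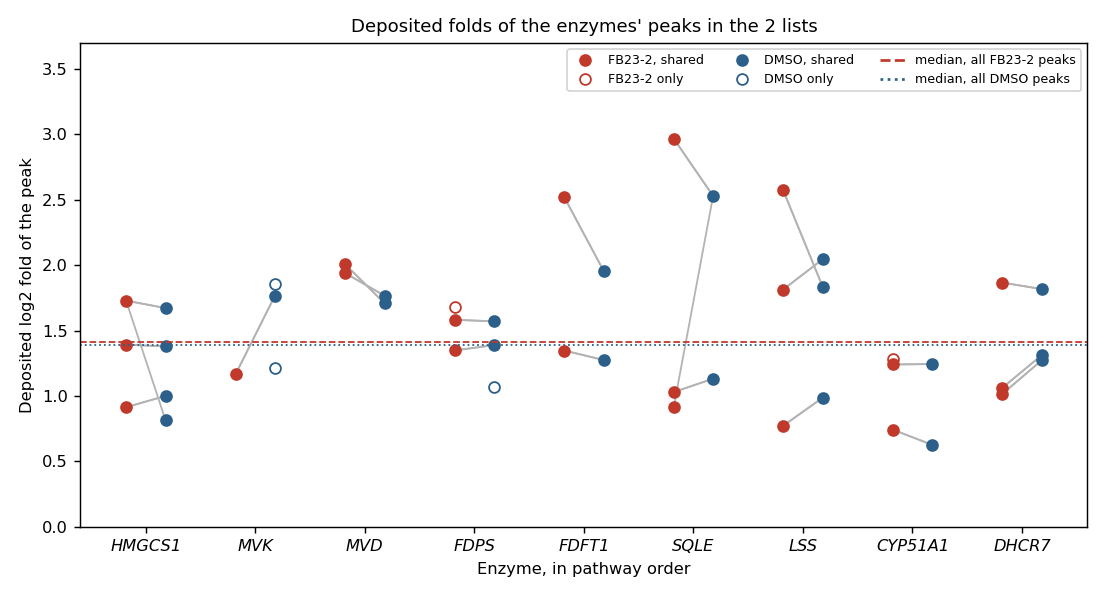
Deposited log2 fold of every peak of the 9 enzymes, with FB23-2 peaks to the left and DMSO peaks to the right of each enzyme, lines between overlapping peaks, and open circles for peaks of 1 list only. Dashed and dotted lines are the medians of all FB23-2 (1.42) and all DMSO (1.39) peaks. Folds of the 3' end peaks of FDPS and CYP51A1 are nearly level, and SQLE has the highest point in each list.

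Across the 9 enzymes, deposited log2 folds ranged between 0.74 and 2.97 under FB23-2 and between 0.63 and 2.53 under DMSO. Their median was 1.35 under FB23-2, against 1.42 for all peaks of that list, and 1.38 under DMSO, against 1.39. A fold of at least 4, or 2 on the log2 scale, was reached by 4 of 23 FB23-2 peaks, in MVD, FDFT1, SQLE and LSS, against 30.4% of all FB23-2 peaks. In the DMSO list 2 of 24 reached it, in SQLE and LSS, against 29.2% of all DMSO peaks. A p of 0 in the authors' deposited table was held by 2 of 23 FB23-2 peaks (10.8% of all) and 4 of 24 DMSO peaks (11.0% of all). Folds of the lists were computed separately by the authors, and values set side by side show no change by themselves.

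Each of the 21 shared FB23-2 and 21 shared DMSO peaks and its partner were nested, one wholly within the other, where 83.7% of all shared FB23-2 and 83.5% of all shared DMSO peaks were. Both borders were identical in 5 pairs, in HMGCS1, SQLE, LSS, CYP51A1 and DHCR7, against 15.7% of shared FB23-2 and 15.9% of shared DMSO peaks over all genes. Of the 42 borders of the 21 shared DMSO peaks, 19 equalled the partner's, against 38.2% of the borders of all shared DMSO peaks. Within 50 bases of the partner's lay 28, against 64.0% over all, and 14 lay farther off. Differences above 0 ranged between 25 bases and the 5887 bases of SQLE. More than 1 partner was found for 1 of 21 shared FB23-2 peaks, in HMGCS1 (6.47% of all), and for 1 of 21 shared DMSO peaks, in SQLE (7.67% of all). The class differed from the partner's in 3 of 21 shared FB23-2 peaks (5.57% of all), in HMGCS1, MVD and SQLE, and in 3 of 21 shared DMSO peaks (5.29% of all), 2 of them in HMGCS1 and 1 in MVD.

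By class, 15 of 23 FB23-2 peaks (65.2%, exact 95% interval 42.7 to 83.6) and 14 of 24 DMSO peaks (58.3%, 36.6 to 77.9) lay in 3' UTRs, beside 57.3% of all peaks in each list. All peaks include 13.1% under FB23-2 and 13.3% under DMSO in classes other than UTRs, coding exons and introns. The enzymes had 0 peaks there, so the shares have unlike bases and show no excess in 3' UTRs. All 9 enzymes had a 3' UTR peak in both lists, where 76.2% of genes with peaks in both lists, noncoding genes included, did. The 5' UTR class held 5 FB23-2 peaks (21.7%) and 4 DMSO peaks (16.7%), coding exons 1 and 3, and introns 2 and 3. The exact 95% interval of each of these shares includes the share over all peaks. Of the 23 FB23-2 peaks, 4 ended exactly with the gene (in MVD, FDPS, FDFT1 and CYP51A1), against 17.4% of all FB23-2 peaks. Of the 24 DMSO peaks 5 did (in the same enzymes and MVK), against 17.7% of all DMSO peaks, so both counts lie near the background.

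**Figure D4:**
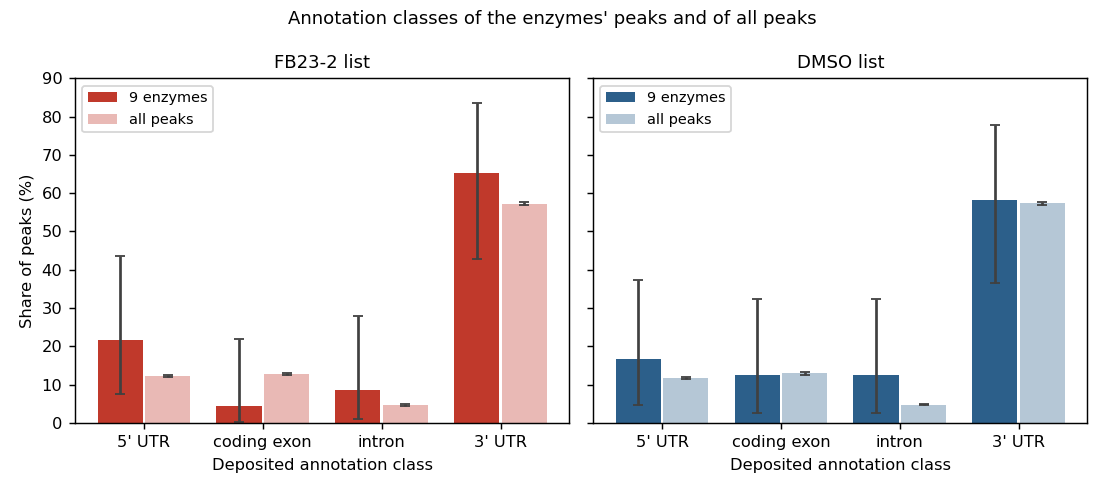
Share of peaks in each deposited annotation class in percent, for the 9 enzymes (dark bars, 23 FB23-2 and 24 DMSO peaks) and for all peaks (pale bars), with the FB23-2 list on the left. Error bars are exact 95% intervals and cover counting error only. The 3' UTR class is the tallest in both lists, at 65.2% and 58.3% for the enzymes. All peaks also include classes not drawn, 13.1% of FB23-2 and 13.3% of DMSO peaks.

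Other enzymes of cholesterol synthesis were looked at as a list of 14, which includes GGPS1 of the branch that leaves the pathway at farnesyl diphosphate. HSD17B7 had no peak in either list, and the other 13 had peaks in both, 32 under FB23-2 and 29 under DMSO. Of these peaks, 4 were FB23-2-only (12.5%, exact interval 3.51 to 29.0), against 17.3% of all FB23-2 peaks. In the DMSO list 3 were DMSO-only (10.3%, exact interval 2.19 to 27.4), against 20.1% of all DMSO peaks. Both intervals include the share over all peaks. Every peak was shared in 8 of the 13 enzymes, against 52.2% of genes with peaks in both lists. The thiolase ACAT2, the kinase PMVK and the sterol reductase LBR each had 1 peak, identical in position in both lists. NSDHL, a sterol dehydrogenase, had the highest log2 folds of the 14, at a 3' UTR peak with 3.0 under FB23-2 and 3.14 under DMSO. IDI2, a second isomerase, had 1 shared 3' UTR peak, with 1.94 under FB23-2 and 1.60 under DMSO. EBP, a sterol isomerase, had 3 FB23-2 and 2 DMSO peaks, and the best overlap of its FB23-2 peak at 48527620 to 48536015 (1.41) was with a DMSO peak assigned to TBC1D25. Most of that FB23-2 peak lay beyond the end of EBP at 48528716. It also took in another FB23-2 peak of EBP, 48528501 to 48528716.

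The list-only peaks of this wider list lay in IDI1, GGPS1, TM7SF2, MSMO1 and SC5D. TM7SF2, a sterol reductase, had 2 FB23-2-only peaks (log2 folds 1.71 and 2.38) and 1 DMSO-only peak (0.86), all in the 3' UTR class. The FB23-2 peak of 1.71 and the DMSO-only peak overlapped, but by less than the rule asks. IDI1, the isomerase of the isoprenoid unit, had 1 DMSO-only intronic peak (1.38), and its 5' UTR peak at the gene's start had 2.58 under FB23-2 and 1.72 under DMSO. MSMO1, a methylsterol oxidase, had an FB23-2-only coding exon peak (0.64) that lay 50 bases from a DMSO peak. SC5D, a sterol desaturase, had an FB23-2-only peak of the 5' UTR class (1.35). It spanned 10387 genomic bases and lay 200 bases from a DMSO peak of SC5D. GGPS1, which makes geranylgeranyl diphosphate, had a DMSO-only peak (0.57). The single FB23-2 peak of GGPS1 (1.32) counted as shared only through a DMSO peak assigned to TBCE. By the authors' deposited adjusted p, the list-only peaks of MSMO1 (0.00108), GGPS1 (0.0112) and TM7SF2 under DMSO (0.0252) were weak. With both lists held to an adjusted p under 0.001, 90.3% of 31 FB23-2 peaks were shared (exact interval 74.2 to 98.0), against 83.6% of all. Of 27 DMSO peaks 96.3% were (81.0 to 99.9), against 83.5% of all.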

How the data were processed

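m6A peaks were measured by MeRIP-seq in MHCC97H cells, in 3 FB23-2 and 3 DMSO samples. The authors deposited 1 peak table per treatment, whose columns name no sample. Per the submitters' processing notes, HISAT2, Cuffdiff and GRCh38 were used. Not given in the sources used here are their versions, the peak caller and strandedness. Each peak's log2 fold change, p-value and adjusted p-value are the authors' deposited values, used only to describe, rank or filter peaks within a list.

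Rows were taken by gene name, and peaks were overlapped with bedtools 2.31.1 on the same strand, at 50% of the shorter peak. Deposited starts count from 0, since 5528 FB23-2 and 5661 DMSO starts lay 1 base below the gene start and 0 equalled it. Positions are given 1-based. Intervals are exact (Clopper-Pearson, scipy 1.17.1) at 95%. The overlap step was run on simulated data, with peaks removed and borders moved by a small part of each span. Such small shifts keep the overlap above the bound of the rule, so this checked the code and not the choice of rule. Splits of 1 peak into several were not simulated. Named genes are the 9 enzymes, 14 other enzymes of the pathway and genes overlapping their peaks. Members and lists were chosen with earlier results of these data known. Alternatives were stricter adjusted p or fold, other overlap rules, strand ignored and equal numbers of peaks. A same-gene partner and widened borders were added after seeing the data. Transcript starts were read from a RefSeq table, and other peak sequence was not analysed here. Some genes of the lists are counted but not reported by name.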

Additional observations from a re-analysis of the deposited data

How the results depend on the processing

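The shared share of the 9 enzymes' peaks stayed inside its 95% interval under an adjusted p below 0.001, any overlap, reciprocal overlap, strand ignored, 33470 top peaks in each list, a partner of the same gene and borders widened by 25 bases. It ran between 78.3% (reciprocal overlap) and 95.7% (widened borders) for FB23-2 peaks, and between 75.0% and 91.7% for DMSO peaks at these settings. With both lists held to a fold of at least 4, 4 FB23-2 and 2 DMSO peaks of the enzymes were left, of which 25% and 50% were shared. For the other 14 enzymes 50% of 6 FB23-2 and 100% of 3 DMSO peaks were shared there. Over all peaks the share at that fold was 83.7% for FB23-2 and 84.8% for DMSO, against 82.7% and 79.9% without it. The 9 enzymes' peaks without a partner at that fold were shared without the filter, each with a partner below a log2 fold of 2. Under FB23-2 they lay in MVD (2.01, partner 1.71), FDFT1 (2.52, partner 1.96) and LSS (2.57, partner 1.84). Under DMSO it was a peak of LSS (2.04, partner 1.81). The filter leaves few peaks of the enzymes. Why partners differ in fold was not tested, nor was the cause of the shifts in the other 14 enzymes. The list-only peaks of FDPS became shared with widened borders and were left out among the top peaks and at a fold of at least 4. Those of CYP51A1 and MVK were lost only at that fold. With reciprocal overlap the 3' UTR pair of MVK, 1 DMSO peak of HMGCS1, and 2 FB23-2 and 1 DMSO peaks of SQLE counted as list-only too, so 4 and not 6 of the 9 enzymes had every peak shared. It was 7 with the top peaks and with widened borders. The share of all genes with every peak shared was not counted at these settings. The same-gene and widened-border rules were chosen after seeing the data. No paired analysis was possible because neither table names samples or replicate numbers. For the same reason leaving out replicates was not run, and exon blocks were not run because the tables hold none.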

Other observations

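Most border differences between the lists were multiples of 25 bases. Of the 42 borders of the 21 shared DMSO peaks of the enzymes, 19 did not differ from the partner's, 16 differed by a multiple of 25 bases and 7 by another number. Over all shared DMSO peaks, 79.9% of the differences above 0 were multiples of 25. The gap between the list-only peaks of FDPS, and those between the neighbouring DMSO peaks of HMGCS1 and of DHCR7, were also 25 bases.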
